A study of Mus musculus with 32 samples.

Results

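The genes described here encode the subunits of the mitochondrial respiratory chain and of the ATP synthase: 38 genes of complex I, 4 of complex II, 9 of complex III, 18 of complex IV and 17 of complex V, 86 in all of 20660 genes named on the array. They were chosen by symbol (Nduf followed by a, b, c, s or v, the Sdh, Uqcr, Cox4 to Cox8 and Atp5 genes, and Cyc1), leaving out assembly factors and pseudogenes. All samples came from mice of the 129+Ter/SvJcl background aged 3 weeks. Primary spheres (8 cultures) were grown for 8 days from tissue of TH-MYCN hemizygotes, and passaged spheres (4 cultures, each read on 2 arrays that were averaged) were such spheres after 5 passages. The ganglia were 8 superior mesenteric ganglia (SMG, a sympathetic ganglion of the abdomen) of TH-MYCN hemizygotes and 8 of wild-type mice. The TH-MYCN transgene expresses MYCN under the tyrosine hydroxylase promoter, so it acts in catecholaminergic cells and not in the other cells of a ganglion. The passaged spheres also carry the transgene, so no culture without it is among the samples. The questions the groups allow are how the ganglion of a TH-MYCN mouse differs from a wild-type one, how cultured spheres differ from the TH-MYCN ganglion, and whether passaging alters spheres further.

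Complexes I and II pass electrons from NADH and succinate to ubiquinone, complex III passes them to cytochrome c and complex IV to oxygen, and complexes I, III and IV pump protons across the inner mitochondrial membrane. The ATP synthase, complex V, lets the protons back through its membrane sector Fo, whose ring of c subunits turns the central stalk inside the catalytic sector F1. Most subunits are encoded in the nucleus and are made in all tissues, but several subunits of complex IV have a second gene that takes over in heart, skeletal muscle, brown fat, lung or testis. Neurons depend strongly on this pathway, and MYC family proteins are known to raise the expression of many mitochondrial genes.

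A level is given throughout as the log2 of the spot intensity over the 75th percentile of its array (the 75th percentile scale), so a level of 0 equals that percentile, and levels of different genes, read by different probes, are not set against each other. All 8 sympathetic neuron markers (Th, Dbh and others) were well above background in every sample of the 4 groups, and their summed signal, in multiples of the 75th percentile, was 513 to 586 in passaged spheres, 414 to 517 in primary spheres, 628 to 1060 in TH-MYCN SMG and 1070 to 1450 in wild-type SMG. All 8 glial, 6 fibroblast, 6 macrophage and 6 erythroid markers tested were lower in primary spheres than in TH-MYCN SMG; summed fibroblast markers were 0.418 to 8.53 in primary spheres against 161 to 206 in TH-MYCN SMG. Of 5 endothelial markers 4 were lower in primary spheres, with Cdh5 and Cldn5 well above background in 0 of 8, and Kdr was higher. Markers of dividing cells summed to 165 to 191 in primary spheres, 23.4 to 98.7 in TH-MYCN SMG and at most 1.35 in wild-type SMG. In TH-MYCN SMG against wild-type SMG, 6 of 6 macrophage markers rose, while 8 of 8 glial, 6 of 6 fibroblast and 4 of 5 endothelial markers fell, and of 8 neuron markers 5 fell and 1 rose. In such bulk samples, fewer cells of a type and less RNA per cell cannot be told apart, and the part of cell makeup in the results below was not tested.

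The subunit genes are among the brightest on the array: 73 of the 84 tested lay in the top 10% of tested genes, with a median rank at percentile 97.5. This matters for every comparison with spheres, because the bright end of the arrays reached further in culture. The 99th percentile of an array lay 7.24 to 7.48 above its 75th percentile (log2) in primary spheres, 6.2 to 6.68 in TH-MYCN SMG and 6.37 to 6.79 in wild-type SMG. Each result was therefore computed on 7 scalings, and a change is called scale-independent below where the gene passed the test in the same direction on all 7. Cox7b2 and Cox8c, isoforms of testis, were well above background in no sample and were not tested.

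The promoters of the members were read from RefSeq (GRCm38.p6) as windows of 300 bases around the gene's start, and 69 of the 86 genes had an entry, with 74 windows. The binding sequence of NRF1, the nuclear factor best known for driving respiratory chain genes (its palindromic consensus, read on either strand), was found in 24.3% of these windows, against 4.6% of all 32851 windows in the table. The core site of ETS factors such as GABP (CCGGAAG) was in 23.0% against 8.86%, while the MYC E-box (CACGTG) was in 9.46% against 7.15% and the TATA box (TATAAA) in 12.2% against 13.6%. A match is a description of the letters and not a binding site. The windows below belong to Atp5g2 and Ndufs6, which rose in spheres on every scaling and hold an NRF1 match, Ndufab1, the complex I subunit with the largest rise and no match to a motif searched, and Cox8b, a tissue isoform undetected in spheres. Capitals mark matches to the NRF1 sequence, to CCAAT (or ATTGG on the other strand), to the hypoxia core ACGTG (or CACGT) and to TATAAA. All are on the minus strand and run 5′ to 3′. Atp5g2 is at chr15:102670998-102671297, Ndufs6 at chr13:73328433-73328732, Ndufab1 at chr7:122101799-122102098 and Cox8b at chr7:140900397-140900696. CCAAT was found in 41.9% of member windows against 37.4% of all, and ACGTG in 24.3% against 19.6%. Among other members that rose in primary spheres on every scaling, Atp5c1 held an NRF1 match in a window. Ndufa12, Ndufb7, Uqcrfs1, Cox6b2 and Atp5e held none. Of those lower in TH-MYCN SMG than in wild-type SMG on every scaling, Ndufa11, Ndufb4, Ndufs5 and Atp5h held a match. Ndufa9, Ndufb3, Ndufs8, Ndufv3, Sdhb and Cox7c did not, and Uqcrq had no entry. Whether matches go with changes was not tested.
Atp5g2: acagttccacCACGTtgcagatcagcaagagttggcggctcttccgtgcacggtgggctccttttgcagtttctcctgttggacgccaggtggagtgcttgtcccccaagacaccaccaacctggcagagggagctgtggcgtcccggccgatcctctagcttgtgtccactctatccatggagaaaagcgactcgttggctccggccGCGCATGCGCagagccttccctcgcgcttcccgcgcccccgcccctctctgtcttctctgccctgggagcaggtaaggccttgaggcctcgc
Ndufs6: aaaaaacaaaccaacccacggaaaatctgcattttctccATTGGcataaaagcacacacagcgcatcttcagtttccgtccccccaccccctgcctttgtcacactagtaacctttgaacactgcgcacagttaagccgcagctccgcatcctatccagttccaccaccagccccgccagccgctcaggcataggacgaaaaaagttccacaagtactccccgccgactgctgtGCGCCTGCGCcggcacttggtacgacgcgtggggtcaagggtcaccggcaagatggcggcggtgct
Ndufab1: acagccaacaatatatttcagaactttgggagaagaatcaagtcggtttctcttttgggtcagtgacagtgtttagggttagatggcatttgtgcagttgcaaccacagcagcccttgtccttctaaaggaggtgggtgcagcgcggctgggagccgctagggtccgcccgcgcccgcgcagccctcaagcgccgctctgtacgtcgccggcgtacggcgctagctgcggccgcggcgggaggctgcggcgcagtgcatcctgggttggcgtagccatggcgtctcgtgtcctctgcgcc
Cox8b: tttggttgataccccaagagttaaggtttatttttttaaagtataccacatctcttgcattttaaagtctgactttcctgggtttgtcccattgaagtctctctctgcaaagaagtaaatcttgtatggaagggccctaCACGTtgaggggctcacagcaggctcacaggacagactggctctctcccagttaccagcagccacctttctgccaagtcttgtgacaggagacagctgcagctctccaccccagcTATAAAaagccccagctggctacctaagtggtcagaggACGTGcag

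In TH-MYCN SMG, most subunit genes were modestly lower than in wild-type SMG. Of 84 members tested, 57 were lower and 2 higher (limma, adjusted p under 0.05), and the 57 are 67.9% of the members, against a background of 43.6% of 15817 genes called lower and 22% called higher. The members' median difference was -0.31 on the log2 scale, beside -0.22 for all genes tested, and no called member differed by 2-fold. The lower calls ran through all complexes: 27 of 38 in complex I, 3 of 4 in complex II, 7 of 9 in complex III, 11 of 16 in complex IV and 9 of 17 in complex V. Within complex I, 6 of 7 core subunits and 21 of 31 accessory subunits were lower.

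The size of this shift depended on the scale, and the number of calls on the scale and the slide. With each array moved to set the difference of the median gene to 0, 11 members were lower (13.1%, background 26.3%) and 4 higher (4.76%, background 32.6%). With normexp background correction 36 were lower (42.9%, background 46.6%), with quantile normalization 40 (47.6%, background 41.4%) and with cyclic loess 57 (67.9%, background 38.7%). Both groups were hybridised on the same 2 slides, and 18 members were lower within slide 1 (21.4%, background 29.8%) and 50 within slide 2 (59.5%, background 42.2%). These fits held fewer samples, and their median differences, -0.31 and -0.28, were close to the overall one. So the share of members called lower was under that of all genes with the median gene at 0, with normexp and within slide 1. The members of wild-type SMG replicate 1 were high as a group, with a median 0.27 above the wild-type mean, and 54 members were lower without it.

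**Figure D1:**
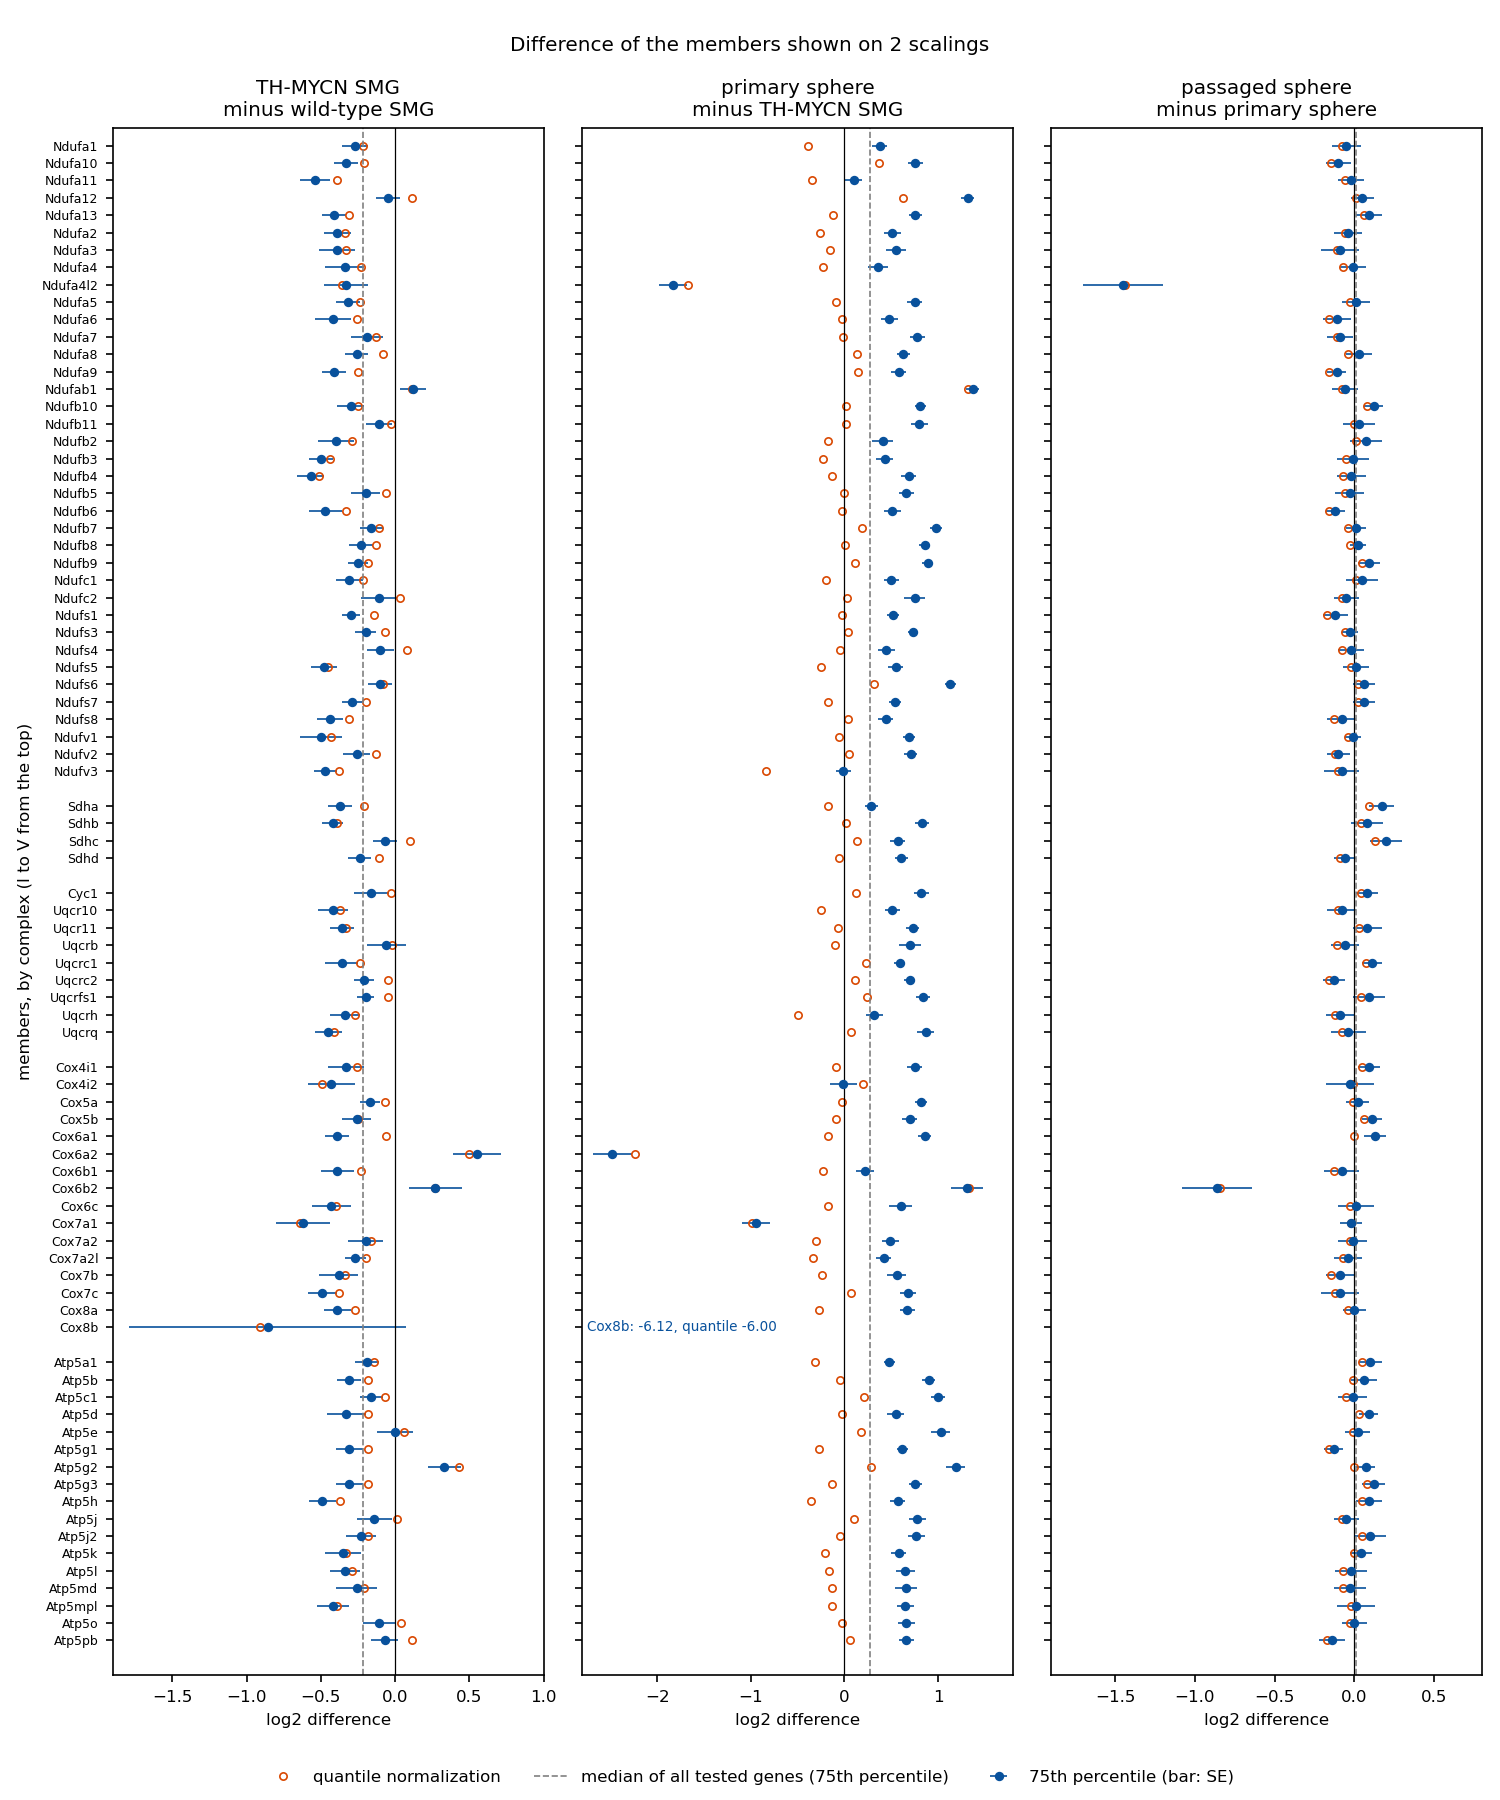
Log2 difference of the tested members (rows, by complex; 1 counted member is not shown) in the 3 comparisons, with filled points on the 75th percentile scale (bars: SE) and open points after quantile normalization; the dashed line is the median of all genes tested. In TH-MYCN SMG minus wild-type SMG most points lie left of 0 on both scalings, whereas in primary sphere minus TH-MYCN SMG the filled points have a median of 0.65 and the open points of -0.05, a change of sign with the scale. In passaged sphere minus primary sphere all but Ndufa4l2 and Cox6b2 lie near 0.

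The 11 members that were lower after the median shift were the scale-independent ones: Ndufa9, Ndufa11, Ndufb3, Ndufb4, Ndufs5, Ndufs8 and Ndufv3 of complex I, Sdhb of complex II, Uqcrq of complex III, Cox7c of complex IV and Atp5h of complex V. These 11 of 84 are fewer, as a share, than the 26.1% of all genes that were lower on all 7 scalings. Ndufb4, an accessory subunit of the membrane arm, was at 6.15, 6.46 and 6.63 (lowest, median, highest of 8) in TH-MYCN SMG, against 6.84, 6.96 and 7.41 in wild-type SMG. The 2 groups did not overlap, and the difference was -0.57 (SE 0.09, limma adjusted p = 8.59e-05). Ndufa11, another membrane-arm subunit, was at 3.69, 4.09 and 4.31 in TH-MYCN SMG, against 4.4, 4.61 and 4.88 in wild-type SMG, again without overlap (difference -0.54, SE 0.1, adjusted p = 0.000172). Ndufv3, a small subunit of the NADH-oxidising module, was lower without overlap as well (difference -0.47, SE 0.08, adjusted p = 8.72e-05).

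Sdhb, the iron-sulfur subunit of succinate dehydrogenase, was at 5.83, 5.86 and 6.07 in TH-MYCN SMG, against 6.17, 6.34 and 6.48 in wild-type SMG. Every TH-MYCN ganglion lay below every wild-type one (difference -0.42, SE 0.07, limma adjusted p = 6.53e-05). Uqcrq, a small subunit that sits beside cytochrome b in complex III, was at 6.12, 6.4 and 6.61 in TH-MYCN SMG, against 6.63, 6.78 and 7.17 in wild-type SMG (difference -0.45, SE 0.09, adjusted p = 0.000466). Its second kept probe gave -0.32 with an adjusted p of 0.0513, so the call rests on the brighter probe. Atp5h, the d subunit of the stalk that holds the ATP synthase still, was at 6.68, 7.05 and 7.26 in TH-MYCN SMG, against 7.31, 7.45 and 7.85 in wild-type SMG, without overlap (difference -0.49, SE 0.09, adjusted p = 0.000267).

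Catalytic and core subunits were lower by small amounts. Atp5b, the catalytic beta subunit of F1, was at 6.94, 7.11 and 7.39 in TH-MYCN SMG, against 7.18, 7.44 and 7.63 in wild-type SMG. The groups overlapped, and the difference of -0.31 (SE 0.08, limma adjusted p = 0.00308) missed the threshold after quantile normalization (-0.18, adjusted p = 0.0518). Ndufs1, the largest core subunit of complex I, was at 4.52, 4.62 and 4.71 in TH-MYCN SMG, against 4.83, 4.9 and 5.14 in wild-type SMG, with no overlap (difference -0.3, SE 0.06, adjusted p = 0.000604), though it too missed the threshold after quantile normalization (-0.14, adjusted p = 0.0887). Ndufv1, which binds NADH, differed by -0.5 (SE 0.14, adjusted p = 0.00432), and Sdha, the flavoprotein of complex II, by -0.37 (SE 0.08, adjusted p = 0.000671). With the median gene at 0 both calls were lost (-0.28, adjusted p = 0.0867, and -0.15, adjusted p = 0.107). They were also lost within slide 1 (adjusted p = 0.077 and 0.0664). Cyc1 (cytochrome c1) and Atp5a1 (the alpha subunit) did not pass the test, with differences of -0.16 and -0.19 (adjusted p = 0.242 and 0.0524), but both did with slide as a block (adjusted p = 0.0468 and 0.0368). Over all alternatives their differences ran from -0.24 to 0.06 and from -0.27 to 0.03, so their signs were not fixed.

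Both members that were higher in TH-MYCN SMG than in wild-type SMG are isoforms. Atp5g2 is 1 of 3 genes (Atp5g1, Atp5g2, Atp5g3) whose mature products are the same c subunit, differing in the targeting peptide that is removed on import. Atp5g2 was at 6.35, 6.89 and 7.17 in TH-MYCN SMG, against 6.35, 6.44 and 6.79 in wild-type SMG. The ranges overlapped through TH-MYCN replicate 4, the lowest of its group, and the difference was 0.33 (SE 0.11, limma adjusted p = 0.0143), and was the one scale-independent rise of a member, from 0.33 to 0.55 (16.7% of all genes rose on all 7 scalings). Within slide 1 its difference was also 0.33 but the adjusted p was 0.179. Atp5g1 and Atp5g3 were each lower by -0.31 (SE 0.09 each, adjusted p = 0.00595 and 0.00485).

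Because both probes of a ratio are read on the same array, the difference between 2 members of a sample does not depend on the array's percentile. It can still change with quantile or loess normalization, as for Cox4i2 over Cox4i1 below. The change of Atp5g2 exceeded that of Atp5g1 by 0.64 and that of Atp5g3 by 0.64 in TH-MYCN SMG over wild-type SMG (exact permutation tests, two-sided, p = 0.000466 for each, adjusted p = 0.00128 over 22 such ratios chosen after the values were seen, n = 8 each). After quantile normalization both ratios changed by 0.61. The falls of the partners alone were lost after quantile normalization (-0.18 for both, limma adjusted p = 0.125 for Atp5g1 and 0.11 for Atp5g3) and with the median gene held still (-0.09 for both).

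Primary spheres differed from TH-MYCN SMG in the opposite direction on the 75th percentile scale, and that direction turned with the scaling. There, 77 of 84 members were higher and 4 lower (limma, adjusted p under 0.05), which is 91.7% higher against a background of 50.3% of 15623 genes higher and 33% lower, with a members' median of 0.65 beside 0.27 for all genes. Called in either direction were 83.2% of all genes. With normexp 75 were higher (background 57.1%, median 0.53), and with the median gene held still 66 were (background 37.8%, median 0.38), but after quantile normalization 12 were higher and 25 lower (background 44.1% and 36.7%, median -0.05) and after cyclic loess 10 higher and 28 lower (background 30.7% and 45.5%, median -0.09). The median of all genes was 0.35 with normexp, 0.11 after quantile normalization and -0.14 after cyclic loess. So the members' median lay under that of all genes after quantile normalization and above it after cyclic loess. Quantile and loess normalization pull the bright ends of all arrays together, and the members sit in that end. Each group lay on slides of its own, so slide and group cannot be told apart in this comparison.

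**Figure D2:**
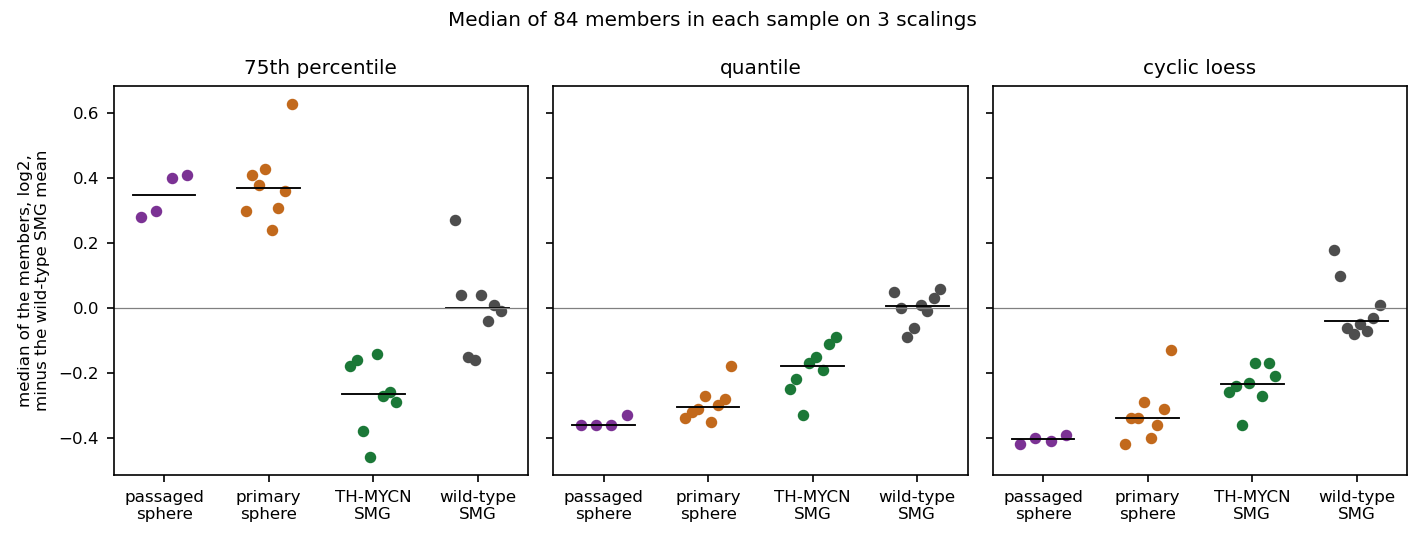
Median of the 84 tested members in each sample, in log2 units relative to the wild-type SMG mean, on 3 scalings; points are samples and lines group medians. On the 75th percentile scale the primary spheres lie at 0.24 to 0.63 and TH-MYCN SMG at -0.46 to -0.14, whereas after quantile normalization they lie at -0.35 to -0.18 and -0.33 to -0.09, and after cyclic loess at -0.42 to -0.13 and -0.36 to -0.17, so the direction between primary spheres and TH-MYCN SMG turns with the scale.

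On the 75th percentile scale every complex took part: 35 of 38 members of complex I were higher in primary spheres than in TH-MYCN SMG, 4 of 4 of complex II, 9 of 9 of complex III, 12 of 16 of complex IV and 17 of 17 of complex V, counts that hold for that scale and not for quantile or loess normalization. Complex medians there ran from 0.58 (complex IV) to 0.7 (complex III), and the F1 subunits had a median of 0.9. Atp5b, the catalytic subunit, shows the dependence on the scale for a single gene. It was at 7.89, 7.98 and 8.22 in primary spheres, against 6.94, 7.11 and 7.39 in TH-MYCN SMG. The ranges were well apart and the difference was 0.9 (SE 0.07, limma adjusted p = 5.71e-09), whereas it was -0.05 (adjusted p = 0.53) after quantile normalization and 0.02 (adjusted p = 0.794) after cyclic loess.

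For 9 members the rise in primary spheres over TH-MYCN SMG was scale-independent: Ndufab1, Ndufa12, Ndufb7 and Ndufs6 of complex I, Uqcrfs1 of complex III, Cox6b2 of complex IV, and Atp5c1, Atp5e and Atp5g2 of complex V. That is fewer, as a share, than the 30.4% of all genes that were higher on all 7 scalings. Apart from Ndufab1, Uqcrfs1, Cox6b2 and Atp5g2, these members are named because of this count, after their values were seen. Ndufab1 is the mitochondrial acyl carrier protein, which serves fatty acid synthesis and iron-sulfur cluster assembly as well as being a subunit of complex I. It was at 1.22, 1.35 and 1.46 in primary spheres, against -0.23, -0.06 and 0.21 in TH-MYCN SMG. Every sphere culture was above every ganglion, by 1.37 on average (SE 0.07, limma adjusted p = 3e-11), and the difference ran from 1.04 to 1.5 over the scalings.

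Ndufa12, an accessory subunit of the matrix arm, was at 6.15, 6.25 and 6.51 in primary spheres, against 4.68, 5 and 5.12 in TH-MYCN SMG, without overlap. Its difference was 1.32 (SE 0.07, limma adjusted p = 2.98e-11) and ran from 0.61 to 1.44 over the scalings. Ndufs6, a zinc-binding subunit added late in complex I assembly, was at 7.13, 7.29 and 7.38 in primary spheres, against 5.95, 6.15 and 6.3 in TH-MYCN SMG. It too separated the groups (difference 1.13, SE 0.06, adjusted p = 5.59e-11, from 0.32 to 1.25 over the scalings). Ndufb7 of the membrane arm rose by 0.98 (SE 0.06, adjusted p = 4.84e-10, from 0.19 to 1.1).

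Uqcrfs1, the Rieske iron-sulfur protein that carries electrons out of the quinol site of complex III, was at 5.41, 5.65 and 5.9 in primary spheres, against 4.69, 4.83 and 4.94 in TH-MYCN SMG. The groups did not overlap, and the difference of 0.84 (SE 0.07, limma adjusted p = 8.89e-09) ran from 0.16 to 0.96 over the scalings. Atp5c1, the gamma subunit that forms the rotating shaft of the ATP synthase, was at 6.36, 6.62 and 6.84 in primary spheres, against 5.4, 5.64 and 5.76 in TH-MYCN SMG (difference 1, SE 0.07, adjusted p = 1.91e-09, from 0.21 to 1.12). Atp5e, the epsilon subunit at the foot of the same shaft, was at 7.31, 7.57 and 7.65 in primary spheres, against 6.06, 6.62 and 6.76 in TH-MYCN SMG (difference 1.03, SE 0.1, adjusted p = 5.8e-08, from 0.18 to 1.16). Both shaft genes separated the groups on the 75th percentile scale. The third gene of that shaft, Atp5d, rose by 0.55 there (adjusted p = 1.98e-05) but not on every scaling.

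Atp5g2 was again the c subunit gene that moved most. It was at 7.94, 8.02 and 8.21 in primary spheres, against 6.35, 6.89 and 7.17 in TH-MYCN SMG, without overlap (difference 1.19, SE 0.1, limma adjusted p = 8.25e-09, from 0.28 to 1.31 over the scalings). Its 2 kept probes gave 1.3 and 1.19. Relative to Atp5g1 it rose by 0.57 in primary spheres over TH-MYCN SMG (exact permutation test, two-sided, p = 0.000155, the smallest this design can give, adjusted p = 0.00057), and by 0.54 after both quantile and loess normalization. Relative to Atp5g3 it rose by 0.42 (exact permutation test, adjusted p = 0.00342), with overlapping groups. Atp5g1 and Atp5g3 were themselves higher by 0.62 and 0.76 on the 75th percentile scale but lower by -0.27 and -0.13 after quantile normalization.

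**Figure D3:**
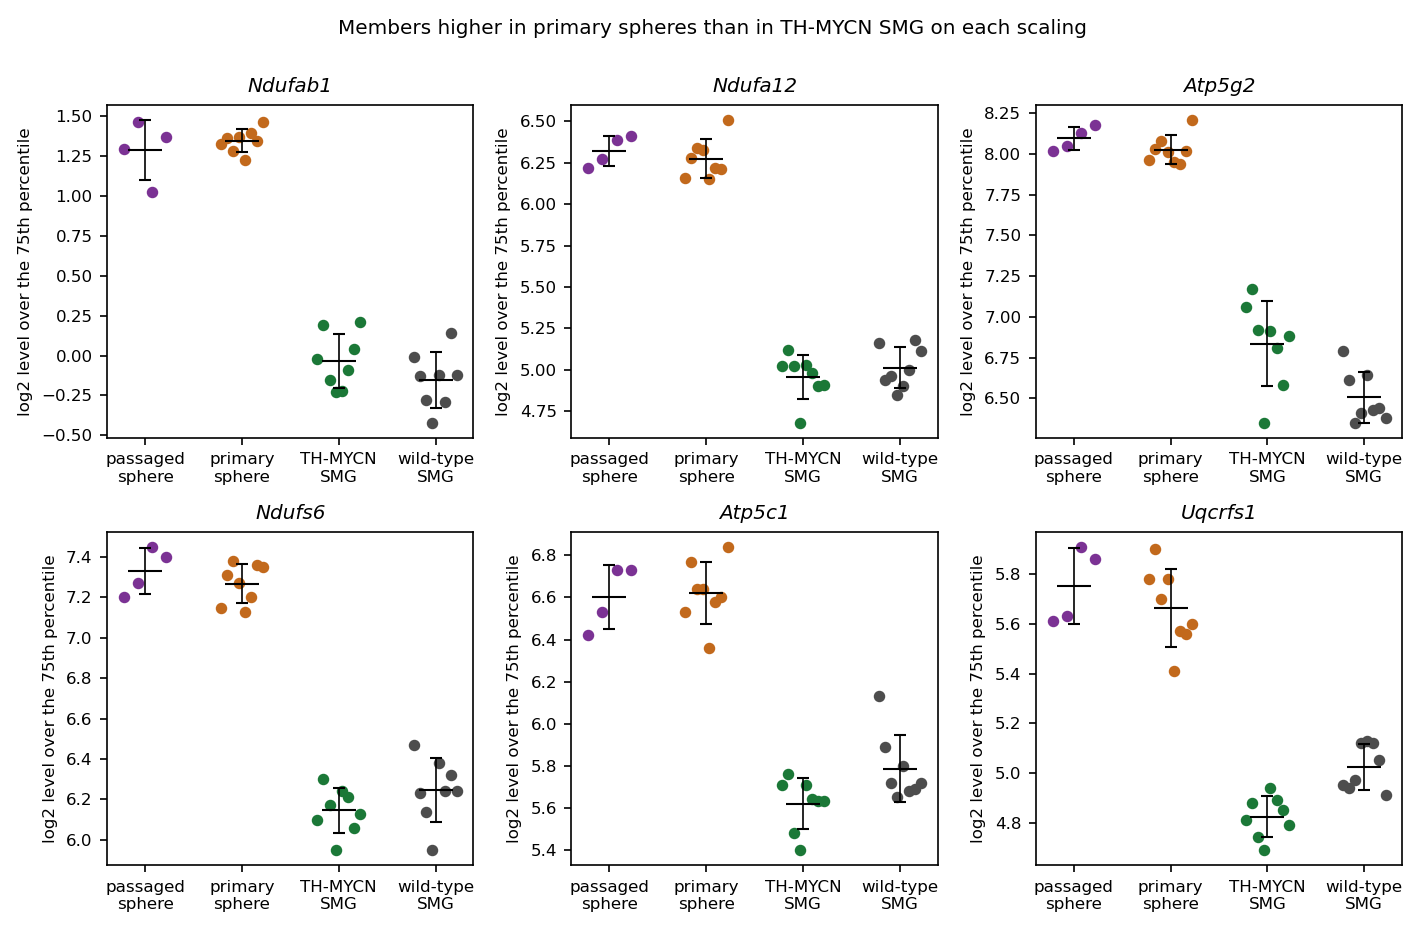
Log2 level over the array's 75th percentile in each sample for 6 members that were higher in primary spheres than in TH-MYCN SMG on all 7 scalings; points are samples, and bars give the group mean and SD. In each panel the spheres lie above all ganglia, and passaged and primary spheres overlap.

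On the 75th percentile scale, by the brightest probe of each gene, the members that fell in primary spheres were isoforms known from other tissues. The dimmer of 2 kept probes of Ndufv3 was also lower there (-0.53, limma adjusted p = 0.00138), while the brighter one, which stood for the gene, gave -0.01. After quantile normalization 25 members were called lower and after cyclic loess 28, with Atp5a1, Atp5h and Sdha among them on both. Cox7a1, Ndufa4l2 and Cox8b were lower in primary spheres than in TH-MYCN SMG on all 7 scalings (background 24.2%), and Cox6a2 on 6 of them. Cox8b and Cox6a2 were well above background in no primary sphere, so their probes passed the filter through the ganglia alone. A lower bound of their fall is given below in place of the p-value of the fit. Cox7a1 is the subunit 7A isoform of heart, skeletal muscle and brown fat. It was at -0.13, -0.04 and 0.21 in primary spheres, against 0.39, 0.77 and 1.58 in TH-MYCN SMG. All spheres were lower than all ganglia (difference -0.94, SE 0.15, limma adjusted p = 1.93e-05). In the ganglia it was also lower in TH-MYCN SMG than in wild-type SMG, which held 1.09, 1.48 and 1.97, with overlapping ranges (difference -0.62, SE 0.18, adjusted p = 0.00582), a call that was lost with the median gene held still (-0.4, adjusted p = 0.0608). Its counterpart Cox7a2, used in most tissues, was higher by 0.49 in primary spheres on the 75th percentile scale (adjusted p = 0.000148) and lower by -0.3 after quantile normalization, but the ratio of Cox7a1 to Cox7a2 fell on both, by 1.42 and 0.69 (exact permutation tests, adjusted p = 0.00057 and 0.00114).

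Cox8b is the subunit 8 isoform of muscle and brown fat in mice. It was well above background in 0 of 8 primary spheres and 0 of 4 passaged spheres, and in 8 of 8 ganglia of each genotype. In TH-MYCN SMG it was at -4.56, -0.76 and 1.9 (lowest, median, highest), against -2.75, 0.38 and 1.54 in wild-type SMG, a wide spread within both groups and no call between them (difference -0.86, SE 0.93, limma adjusted p = 0.424). Primary spheres were at least 24.1-fold lower than TH-MYCN SMG, where the bound sets the mean of the ganglia against the lowest signal well above background on the sphere arrays.

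Fat markers varied between the same ganglia. In TH-MYCN SMG, replicates 4, 6 and 1 held the highest Cox8b (1.9, 1.85 and 0.89) and the highest summed white fat markers (22.8, 14.2 and 27.5), and replicate 5 the lowest of both (-4.56 and 1.19). Summed striated muscle markers were also highest in TH-MYCN replicate 4 (34.3), but replicate 5, with the lowest Cox8b, held the next highest sum (23.8). In wild-type SMG, replicate 8 held the highest Cox8b and the highest white fat sum (1.54 and 39.1), but replicate 4, with the next highest sum (33.1), had Cox8b at -0.63, and the lowest Cox8b (replicate 6, -2.75) and the lowest sum (replicate 7, 3.15) were in different ganglia. Ucp1, the uncoupling protein of brown fat, was at -0.26 and 0.17 in TH-MYCN replicates 4 and 6, the highest of that group, which also held the highest Cox7a1 (1.58 and 1.52). The summed signal of 7 white fat markers was 0.0796 to 0.156 in primary spheres, 1.19 to 27.5 in TH-MYCN SMG and 3.15 to 39.1 in wild-type SMG, and that of 8 brown fat markers was 4.42 to 5.38, 23.4 to 36.8 and 34.7 to 47.8 in the same order. Single brown fat markers disagreed in direction: from TH-MYCN SMG to primary spheres, 1 of 6 tested rose and 3 fell. From wild-type to TH-MYCN ganglia, 2 of 7 rose and 2 fell. Ucp1 was well above background in 8 of 8 primary spheres, at -3.15 to -2.95, inside its TH-MYCN SMG range of -3.99 to 0.17. Adipoq, an adipocyte hormone, and Fabp4, the adipocyte fatty acid binding protein, were well above background in 0 of 8 primary spheres. Retn, another white fat marker, was so in 8 of 8, though all 6 white fat markers tested fell from TH-MYCN SMG to primary spheres. Summed signal of 11 striated muscle markers was at most 1.14 in primary spheres, 34.3 in TH-MYCN SMG and 52.6 in wild-type SMG, but the single markers did not move together: 4 of 10 tested were higher and 3 lower in primary spheres than in TH-MYCN SMG (Myl1 -9.98), and 3 of 9 were higher (Mb 3.99) and 3 lower in TH-MYCN SMG than in wild-type SMG. Ckm was well above background in no sample. The part of these cell types in the levels of Cox8b and Cox7a1 was not tested.

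Cox6a2, the heart and muscle isoform of subunit 6A, was dim in all groups. It was at -6.84, -5.7 and -5.15 in primary spheres, where it was well above background in 0 of 8, against -3.91, -3.37 and -3.01 in TH-MYCN SMG. Spheres were at least 4.01-fold lower, but with normexp, which compresses dim signals, the difference was -0.12 (limma adjusted p = 0.223). Wild-type SMG held -4.46, -3.98 and -3.34, and the rise in TH-MYCN SMG over them (0.55, SE 0.16, adjusted p = 0.00814) turned to -0.1 with normexp (adjusted p = 0.641). Its ubiquitous counterpart Cox6a1 was lower in TH-MYCN SMG than in wild-type SMG by -0.39 (adjusted p = 0.000792), which was -0.06 after quantile normalization (adjusted p = 0.529), and higher in primary spheres than in TH-MYCN SMG by 0.86 on the 75th percentile scale, but by -0.17 after quantile normalization.

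Ndufa4l2, a paralogue of Ndufa4 that is known as a target of hypoxia-inducible factor and that lowers oxygen use, was lower in spheres. It was at -3.02, -2.7 and -2.46 in primary spheres, against -1.7, -0.82 and -0.48 in TH-MYCN SMG. The groups did not overlap (difference -1.83, SE 0.15, limma adjusted p = 4.7e-09, from -2.12 to -1.09 over the scalings). Wild-type SMG held -0.85, -0.56 and -0.1, and the lower level in TH-MYCN SMG did not pass the test (-0.33, adjusted p = 0.0666), though it did with slide as a block (adjusted p = 0.0294). Ndufa4 itself, first assigned to complex I and later to complex IV, was higher by 0.36 in primary spheres than in TH-MYCN SMG on the 75th percentile scale (adjusted p = 0.00683) and -0.23 after quantile normalization. The ratio of Ndufa4l2 to Ndufa4 fell by 2.19 and, after quantile normalization, by 1.44 (exact permutation tests, adjusted p = 0.00057 and 0.00114).

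Cox4i2, the lung isoform of subunit 4 that is raised by low oxygen, was at -2.6, -2.28 and -1.74 in primary spheres and -2.62, -2.23 and -1.83 in TH-MYCN SMG. These ranges covered each other (difference -0.01, limma adjusted p = 0.968), while normexp gave 0.32 (adjusted p = 0.00214) and cyclic loess -0.29 (adjusted p = 0.0438). In TH-MYCN SMG it was lower than in wild-type SMG (-2.25, -1.95 and -1.16) by -0.43 (SE 0.16, adjusted p = 0.031), a call lost when any of wild-type replicates 1, 2 or 3 was left out (adjusted p = 0.0619, 0.0614 and 0.0604) or TH-MYCN replicates 5, 6, 7 or 8 (adjusted p = 0.0544, 0.064, 0.0572 and 0.05). From TH-MYCN SMG to primary spheres the ratio of Cox4i2 to Cox4i1 changed by -0.76 (exact permutation test, adjusted p = 0.00239). Its sign turned after quantile normalization (0.29, exact permutation test, adjusted p = 0.129), and it was -0.21 after cyclic loess.

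Cox6b2, the testis isoform of subunit 6B, rose. It was at 0, 0.54 and 1 in primary spheres, against -1.34, -0.74 and -0.3 in TH-MYCN SMG. All spheres were above all ganglia (difference 1.31, SE 0.17, limma adjusted p = 2.2e-06, from 1.01 to 1.43 over the scalings). Cox6b1, the form of most tissues, changed by 0.22 (adjusted p = 0.0438), a call that held in 8 of 16 fits that left out a sample (adjusted p up to 0.0926) and that became -0.23 after quantile normalization. The ratio of Cox6b2 to Cox6b1 rose by 1.09 and, after quantile normalization, by 1.56 (exact permutation tests, adjusted p = 0.00057 and 0.000855). The remaining isoform pair, Cox8a with Cox8b, and Cox7b and Cox7a2l, which helps complexes III and IV associate, followed the general pattern: Cox8a, Cox7b and Cox7a2l were higher by 0.67, 0.56 and 0.42 on the 75th percentile scale and lower by -0.27, -0.24 and -0.33 after quantile normalization.

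**Figure D4:**
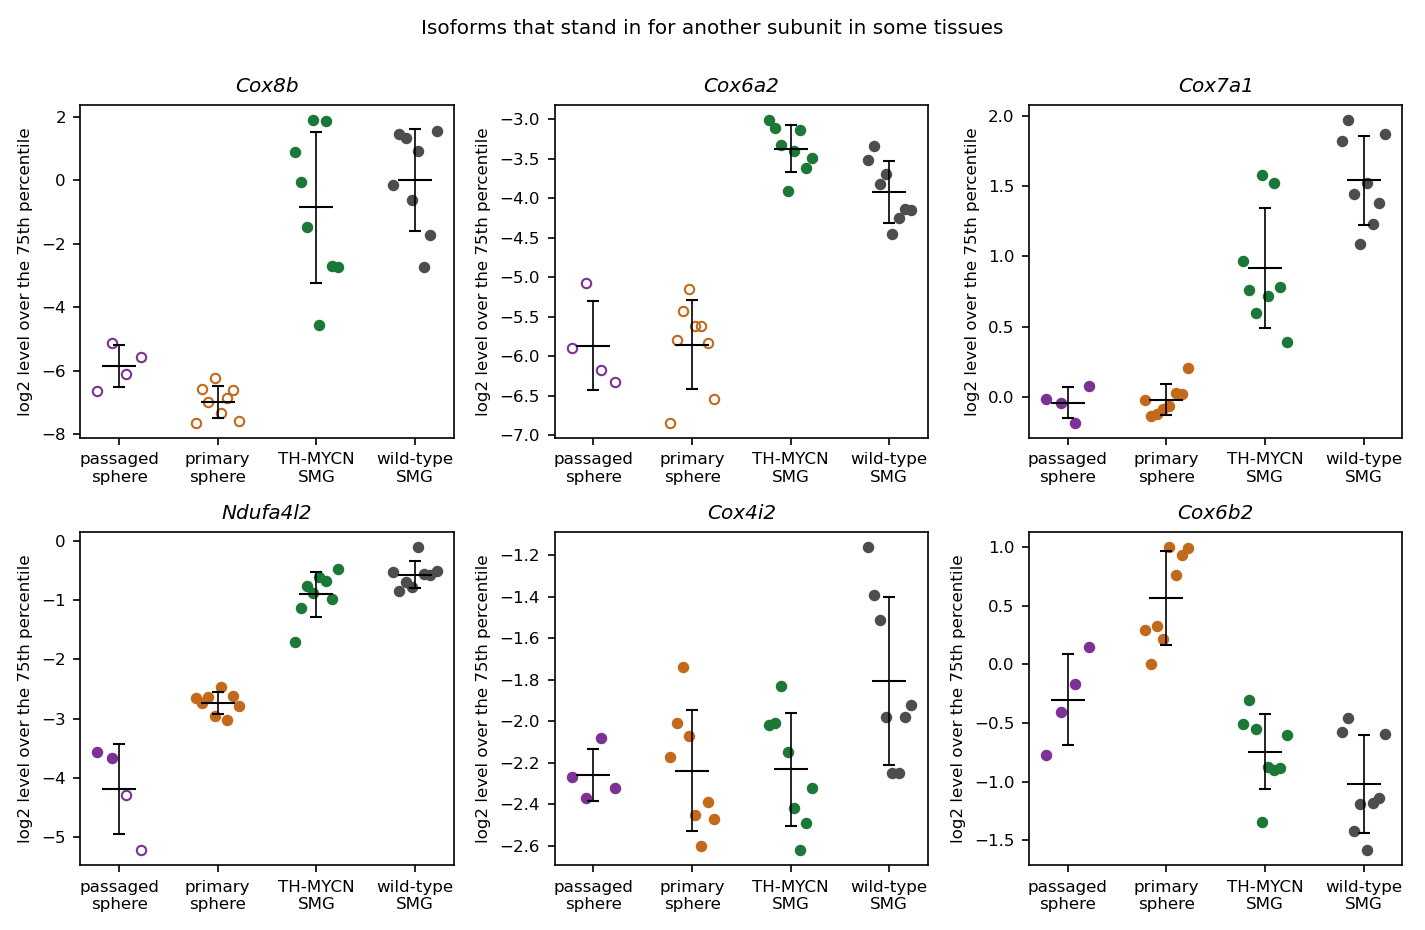
Log2 level over the array's 75th percentile in each sample for 6 isoforms; filled points were well above background and open points were not, and bars give the group mean and SD. Cox8b and Cox6a2 are open in all spheres, Cox7a1 and Ndufa4l2 are lower in spheres than in ganglia, Cox6b2 is highest in primary spheres, and Cox4i2 overlaps between spheres and TH-MYCN SMG on this scale (normexp gave a rise of 0.32 and loess a fall of -0.29).

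Passaging changed 2 members. Of 82 tested in passaged against primary spheres, 0 were higher and 2 lower (limma, adjusted p under 0.05), against a background of 5.2% and 6.66% of 14135 genes. At an unadjusted p under 0.05 there was 1 higher member, Ndufb10 (0.12), and the same 2 lower. The members' median difference was -0.01, and the 95% intervals of the 80 uncalled members all lay between -0.35 and 0.42. Each interval stands for its member alone, without adjustment for the 80, so a larger difference of single members is not excluded. Cox6a2 and Cox8b, at background in all spheres, were not tested.

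Ndufa4l2 fell further, to -3.56, -3.67, -4.3 and -5.22 in the 4 passaged spheres, against -3.02, -2.7 and -2.46 (lowest, median, highest) in primary spheres. All passaged cultures were lower, and only the first 2 were well above background (difference -1.45, SE 0.25, limma adjusted p = 0.00495, from -1.47 to -0.42 over the scalings). Within slide 4 the difference was also -1.45 but missed the threshold (adjusted p = 0.0662). Both members were lower on all 7 scalings, as were 3.18% of all genes, while 2.53% were higher on all 7. Cox6b2 lost part of its rise, at -0.77, -0.41, -0.17 and 0.15 in passaged spheres, against 0, 0.54 and 1 in primary spheres (difference -0.86, SE 0.22, adjusted p = 0.0288). The primary spheres of slide 3 lay at 0.29, 0, 0.33 and 0.22 and those of slide 4 at 1, 0.76, 0.93 and 0.99, so the slides differed within the group, and within slide 3 the fall was -0.51 (adjusted p = 0.128). Without passaged replicates 1 or 2 or primary replicate 7 the adjusted p was 0.0743, 0.082 and 0.0511.

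**Figure D5:**
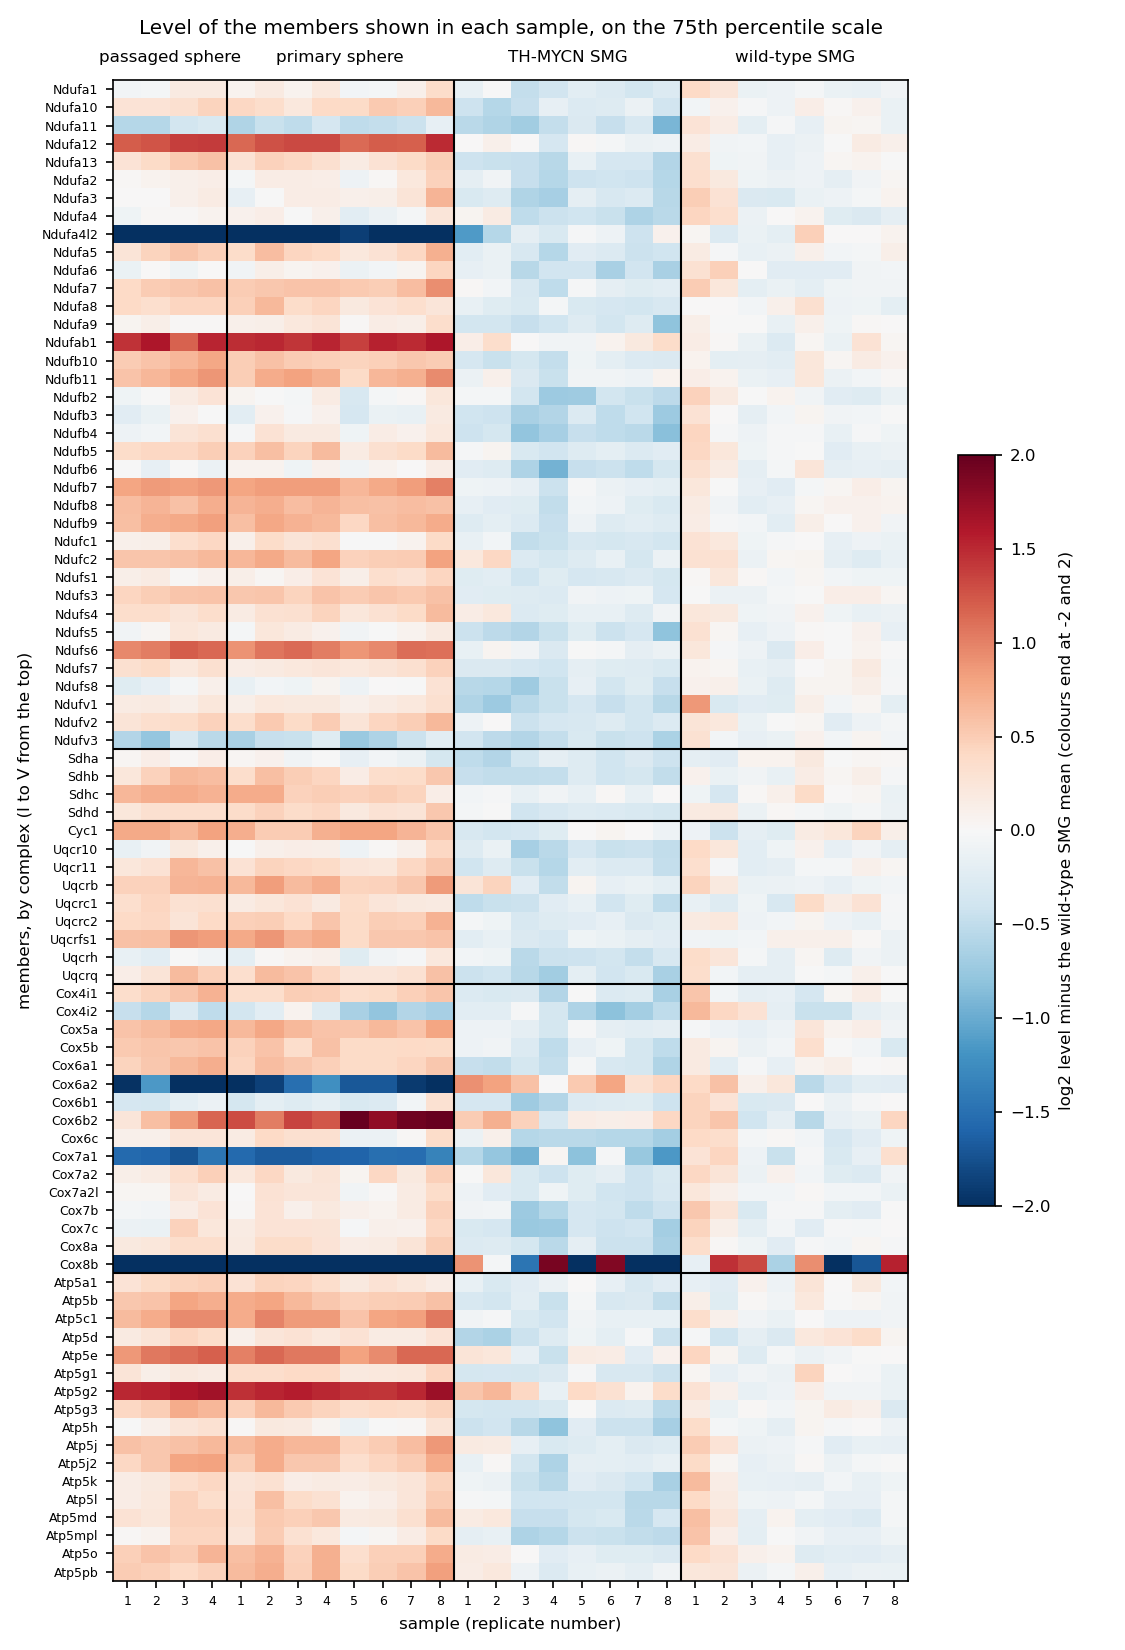
Log2 level of the tested members (rows, by complex; 1 counted member is not shown) in each sample (columns) minus the wild-type SMG mean of that member, on the 75th percentile scale; red is above that mean and blue below. Passaged and primary spheres differ visibly in Cox6b2, while their difference in Ndufa4l2 lies at the end of the colour scale, TH-MYCN SMG is mostly pale blue, and Cox8b varies from sample to sample in the ganglia; the red of the spheres (median 0.65 over TH-MYCN SMG) turns to -0.05 after quantile normalization.

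Genes around the chain were counted by list. Of the mitochondrial ribosome, which translates the subunits encoded in mitochondrial DNA, 76 of 77 genes tested were higher in primary spheres than in TH-MYCN SMG (median 0.89) and 51 of 77 on all 7 scalings, led by Mrps15 (1.43, SE 0.07, limma adjusted p = 1.38e-11). The background of the 76 is 50.3% of all genes, and that of the 51 is the 30.4% given above. The 9 of 84 subunit genes stand below the 30.4%. In TH-MYCN SMG against wild-type SMG, 4 of 78 were higher and 27 lower, led by Mrpl21 (-1.24, SE 0.27, adjusted p = 0.000711), beside 22% and 43.6% of all genes. With the median gene held still 24 were higher and 8 lower, beside 32.6% and 26.3% of all genes. On all 7 scalings 3 were higher and 8 lower, beside 16.7% and 26.1%. Among assembly factors, 30 of 43 were higher and 3 lower in primary spheres, beside 50.3% and 33% of all genes. On all scalings 18 were higher and 2 lower, beside 30.4% and 24.2%. Coa7, a factor for complex IV, was at 1.41 (SE 0.09, limma adjusted p = 1.85e-10). Between TH-MYCN SMG and wild-type SMG, 27 of 42 fell and 3 rose, beside 43.6% and 22% of all genes, with Coa5 at -0.96 (SE 0.13, adjusted p = 1.63e-05). With the median gene held still 11 were lower and 8 higher, against 26.3% and 32.6% of all genes. On all 7 scalings 11 were lower and 1 higher, against 26.1% and 16.7% of all genes.

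The regulators moved less uniformly. Nrf1, the factor whose motif is in the promoters above, was higher in TH-MYCN SMG than in wild-type SMG by 0.93 (SE 0.12, limma adjusted p = 1.3e-05) and higher again in primary spheres than in TH-MYCN SMG by 0.91 (SE 0.11, adjusted p = 9.85e-07), on all scalings. Tfam, which packages and transcribes mitochondrial DNA, did likewise (0.45, adjusted p = 0.000506, and 0.91, adjusted p = 2.03e-07), as did Pprc1, a coactivator of NRF1 (0.79, adjusted p = 4.09e-05, and 1.23, adjusted p = 2.87e-07). Ppargc1a, the coactivator of mitochondrial biogenesis in brown fat and muscle, went the other way, lower in TH-MYCN SMG than in wild-type SMG by -0.57 (adjusted p = 0.000155) and lower in primary spheres than in TH-MYCN SMG by -0.71 (adjusted p = 0.000102). Of 12 regulators, 5 passed the test as higher and 2 as lower between the ganglia, beside 22% and 43.6% of all genes. In primary spheres 9 passed as higher and 3 as lower, beside 50.3% and 33%. On all 7 scalings 5 were higher and 2 lower between the ganglia, beside 16.7% and 26.1% of all genes. There, 7 were higher and 1 lower in primary spheres, beside 30.4% and 24.2%. Tfam and Ppargc1a here, and Cs, Ogdh, Cycs and Slc25a5 in primary spheres below, were named after their values were seen. The 2 comparisons share the TH-MYCN samples.

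The citrate cycle, which supplies NADH and succinate, had 1 gene higher and 12 lower of 18 in TH-MYCN SMG, beside 22% and 43.6% of all genes. After quantile normalization 7 were lower, beside 41.4% of all genes. With the median gene held still 4 were lower and 2 higher, beside 26.3% and 32.6%. On all 7 scalings 4 were lower and 1 higher, beside 26.1% and 16.7% of all genes. The higher gene was Idh2, the mitochondrial NADP-dependent isocitrate dehydrogenase (0.8, SE 0.11, limma adjusted p = 1.52e-05). In primary spheres 14 were higher and 3 lower, beside 50.3% and 33% of all genes. On all scalings 5 were higher and 3 lower, beside 30.4% and 24.2%. Idh2 again changed most (1.29, SE 0.1, limma adjusted p = 4.58e-09). Cs, citrate synthase, was higher (1.04, adjusted p = 1.12e-10), and Ogdh, the E1 subunit of oxoglutarate dehydrogenase, lower (-0.76, adjusted p = 1.03e-05). Of the carriers, Cycs, the cytochrome c that joins complexes III and IV, was higher in primary spheres by 1.17 (SE 0.08, limma adjusted p = 6.04e-10). Slc25a5, an ADP/ATP exchanger of dividing cells, was higher by 1.44 (SE 0.1, adjusted p = 7.73e-10), both on all scalings. Of 11 carriers 5 were higher and 5 lower, beside 50.3% and 33% of all genes. On all scalings 3 were higher and 4 lower, beside 30.4% and 24.2%. Slc25a31 changed most (-2.49, SE 0.53, adjusted p = 0.000331, but 0.15 with normexp, adjusted p = 0.42). Between the ganglia, 3 of 10 carriers fell in TH-MYCN SMG and 0 rose, beside 43.6% and 22% of all genes. The largest fall was that of Slc25a4, the exchanger of muscle and brain (-0.46, limma adjusted p = 0.000246). With passaging, the called genes of these 5 lists were few: 2 of 43 assembly factors were lower, led by Uqcc3 (-0.25, limma adjusted p = 0.0285), and 1 regulator (Pprc1, 0.54, adjusted p = 0.0392) and 1 citrate cycle gene (Ogdh, 0.4, adjusted p = 0.0262) were higher. Of all genes, 5.2% were higher and 6.66% lower with passaging. The call of Pprc1 was lost with cyclic loess (adjusted p = 0.0557), and that of Ogdh with quantile (adjusted p = 0.0756) and loess normalization (adjusted p = 0.0646).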

How the data were processed

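RNA of 28 samples was hybridised to 32 single-colour Agilent mouse arrays (Cy3). Per the labels' protocols, either of 2 amounts of total RNA was labelled; the amount used for each sample is not known here, and its part in the comparisons was not tested. Per the file headers, spots were read with Feature Extraction 11.5.1.1; the deposited spot intensity is background-subtracted. Total counts do not exist for arrays, so the number of arrays limits the precision. The log2 of the deposited intensity minus the array's 75th percentile was computed here; P75 signals ran from 323 to 1358 and no spot was saturated. The authors' deposited value table, used as an alternative, holds log2 values: 99.9% lay within 0.05 of the same quantity less a constant per probe, whose reference is unknown, and array medians ran from -0.48 to 0.51. Probes were named by RefSeq accession (27235 of 55681 probes; the other 28446 were not used). A probe was kept if well above background in at least 4 samples of a comparison, and the brightest kept probe stood for a gene. Control spots and spots marked as outliers on an array were left out. Groups were compared with limma 3.58.1 (R 4.3.3), two-sided, with Benjamini-Hochberg adjustment over all genes tested, at 0.05, after a check on simulated data. Ratios of isoforms used exact permutation tests. The alternatives were normexp (offset 50, on median spot signals), quantile and cyclic loess normalization, 2 median shifts, probe filters, slide, replicate block and leaving out each sample. The series' design text calls the 8, 8, 8 and 4 replicates biological without naming animals. Members named are, per complex and comparison, the largest called rise and fall, all isoforms and the core subunits. The members and lists were chosen with earlier results of these data known. Replicate numbers were not taken to pair the samples, since not every pair of a comparison correlated above 0.1. Deviations of same-numbered ganglia correlated above 0.1 in 7 of 8 pairs, of spheres and ganglia in 1 of 8, and of passaged and primary spheres in 2 of 4. The best match was the same-numbered sample in 4 of 8, 1 of 8 and 3 of 4, so pairing is not excluded. The values of 1 member, which is in the counts and medians, are not reported here.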

Additional observations from a re-analysis of the deposited data

Results flagged for a closer look

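In 124 sets of values (31 named members in 4 groups), 10 samples stood apart from their group by Dixon's criterion, and chance alone marks about 1 in 20 such sets. All values are log2 levels over the 75th percentile. Wild-type SMG replicate 1 was the highest of its group for Ndufv1 (6.94, next 6.19), Ndufb4 (7.41, next 6.97), Cox8a (7.89, next 7.58) and Atp5h (7.85, next 7.54). Wild-type SMG replicate 2 was the highest for Ndufs1 (5.14). Replicate 5 was the highest for Atp5g1 in both ganglion groups (7.03 in TH-MYCN SMG, 7.5 in wild-type SMG), and wild-type replicate 5 also for Ndufa4l2 (-0.1). Primary sphere replicate 8 was the highest for Cox6b1 (4.68) and Cox7a1 (0.21).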

How the results depend on the processing

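All counts are of members. In TH-MYCN SMG against wild-type SMG, the higher count was 1 with normexp, 4 with the median gene held still and 0 within slide 1, and the lower count 36, 11 and 18; the median was -0.09 with the median gene held still. In primary spheres against TH-MYCN SMG, quantile normalization gave 12 higher and 25 lower with a median of -0.05, and cyclic loess 10 higher and 28 lower with -0.09. The median was 0.53 with normexp, 0.77 at a common array median and 0.38 with the median gene held still, and 2 were lower among probes well above background in every sample. In passaged against primary spheres, 1 was higher without a filter on dim probes and with array 2 alone, and 1 was lower with the strict filter, within slide 3 and within slide 4. Leaving out each sample gave 2 higher, 53 to 59 lower and a median of -0.33 to -0.28 (TH-MYCN SMG), 76 to 77 higher, 4 lower and 0.63 to 0.69 (primary spheres), and 0 higher, 1 to 2 lower and -0.04 to 0.03 (passaged spheres).

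Signs turned as follows, for named members whose difference passed the test before or after the turn. With normexp, Cox6a2 in TH-MYCN SMG was -0.1 and Cox4i2 in primary spheres 0.32. With the median gene held still, Uqcrfs1 in TH-MYCN SMG was 0.02 and Cox6b1 in primary spheres -0.05. In primary spheres after quantile normalization, Atp5a1 was -0.31, Atp5b -0.05, Atp5g1 -0.27, Atp5g3 -0.13, Atp5h -0.36, Cox4i1 -0.09, Cox6a1 -0.17, Cox6b1 -0.23, Cox7a2 -0.3, Cox7a2l -0.33, Cox7b -0.24, Cox8a -0.27, Ndufb4 -0.13, Ndufs1 -0.03, Ndufv1 -0.06 and Sdha -0.18. After cyclic loess, Atp5a1 was -0.29, Atp5g1 -0.21, Atp5g3 -0.08, Atp5h -0.29, Cox4i1 -0.08, Cox6a1 -0.1, Cox6b1 -0.37, Cox7a2 -0.27, Cox7a2l -0.31, Cox7b -0.24, Cox8a -0.2, Ndufb4 -0.12, Ndufs1 -0.13, Ndufv1 -0.05 and Sdha -0.32. Both methods equalise the bright ends of the arrays; which scale is closer to RNA per cell was not tested.

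With the replicate block, 65 members were lower in TH-MYCN SMG, 76 higher in primary spheres and 1 lower in passaged spheres (Cox6b2 at -0.51, adjusted p = 0.133). Same-numbered ganglia lay on the same slide, and 7 of 8 such pairs correlated above 0.1; the labels do not pair them. Signal over background limits Cox6a2 and Cox8b in spheres, and Ndufa4l2 in 2 passaged cultures.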
